A study of Caenorhabditis elegans with 24 samples.

Results

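The genes fat-1 to fat-7 encode the fatty acid desaturases of Caenorhabditis elegans, enzymes that place double bonds in fatty acid chains. They were taken as the probe sets of the array whose single gene symbol is one of fat-1 to fat-7. Each gene had 1 probe set, so 7 of the 25434 genes tested were described. According to the RefSeq gene table (assembly WBcel235), fat-1 and fat-2 are neighbours with 0 protein-coding genes between them, and so are fat-3 and fat-4. The other 3 genes lie apart from these pairs and from each other.

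The worm builds its polyunsaturated fatty acids from saturated ones, step by step. FAT-5 acts mainly on palmitic acid, while FAT-6 and FAT-7, which are close relatives of each other, turn stearic acid into oleic acid. FAT-2 turns oleic into linoleic acid, FAT-1 makes the omega-3 forms, and FAT-3 and FAT-4 add the further double bonds that lead to arachidonic and eicosapentaenoic acid. More double bonds keep a membrane fluid in the cold, and fat-7 is known in this animal as a gene that is more active at low temperature. The intestine is the main organ of fat synthesis and storage.

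Whole worms of 2 genotypes, 2 stages and 2 temperatures were measured on 24 arrays, 3 for each of 8 groups. The genotypes were the wild type and the mutant daf-16(mgDF47), which lacks function of the insulin-pathway transcription factor DAF-16. Adults were kept for 3 days from the late L4 stage at 15 °C or 25 °C and collected as day 3 adults, with about 120 worms for each RNA sample. Larvae grew from the embryo at 15 °C or 25 °C until late L4, the last larval stage, with about 300 worms for each RNA sample. No source used here gives the temperature at which the adults had been larvae. Adults were matched by days and not by physiological age, so an effect of warmth and a faster course of adult life at 25 °C cannot be told apart. Each sample pooled whole animals, so fewer cells of a type and less RNA per cell cannot be told apart either. Nothing in the labels says that the 3 preparations of a group came from separate cultures, so p-values measure only the spread between these preparations, which may be technical.

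Values are log2 signals as deposited. A difference is 25 °C minus 15 °C or mutant minus wild type, tested with limma's moderated test and called where the Benjamini-Hochberg adjusted p over all 25434 genes was under 0.05. Every adjusted p below comes from that fit. Adult arrays had medians of 3.55 to 3.70 and larval arrays of 2.96 to 3.08, and the stages look to have been normalized separately, so levels of adults were not tested against those of larvae. The mutant label was checked on daf-16 itself, which was lower in the mutant, at -2.04 and -2.01 in adults kept at 15 °C and 25 °C and at -2.14 and -2.48 in larvae (adjusted p from 6.9e-09 to 1.2e-07). No source used here says whether its probes lie in the deleted part. The stage labels were checked on bli-1, a collagen of the adult cuticle made at the last moult, which lay at a mean percentile of 96.7 to 98.1 among the genes of the larval arrays and of 26.995 to 33.7 in adults. The yolk protein gene vit-2 lay at percentiles of 99.8 to 99.96 in adults and 94.4 to 97.6 in larvae. Of the other genes on the adult-stage list described below, vit-1, vit-5 and vit-6 also had higher percentiles in adults, but col-19 went the other way. Its group mean percentiles were higher among larvae (88.6 to 94.2) than among adults (82.2 to 85.8), so not every listed adult marker followed the stage labels. Preparation 3 of the larvae at 25 °C stood apart in both genotypes: its deviations from the 2 group means correlated at 0.45 over the genes. The larval effects of temperature, and the results resting on them that it moved most, are given with and without it. These runs were added after the data were seen.

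fat-7 fell at 25 °C in all 4 groups compared. In wild-type adults it measured 10.54, 10.08 and 10.35 at 15 °C and 8.68, 8.57 and 7.72 at 25 °C. In mutant adults it measured 10.27, 10.33 and 10.28 at 15 °C and 8.19, 8.46 and 8.05 at 25 °C. All 6 warm adult arrays lay more than 1 log2 unit below all 6 cool ones, and the genotypes overlapped at both temperatures. The difference was -1.997 ± 0.27 (SE) in wild-type adults, 3.99-fold with a 95% interval of 2.71 to 5.87 (adjusted p = 5.5e-06). In mutant adults it was -2.06 ± 0.27, or 4.17-fold (adjusted p = 5.5e-06).

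Larvae showed the same direction. Wild-type larvae measured 9.89, 9.98 and 9.99 for fat-7 at 15 °C and 6.98, 6.83 and 7.82 at 25 °C. Mutant larvae measured 10.20, 10.03 and 10.12 at 15 °C and 7.40, 7.14 and 8.37 at 25 °C. The cool arrays were tight, while preparation 3 was the highest of the warm arrays in both genotypes. fat-7 fell by 2.74 ± 0.27 on the log2 scale in wild-type larvae, a 6.70-fold change with a 95% interval of 4.56 to 9.85 (adjusted p = 7.1e-07). The difference in mutant larvae was -2.48 ± 0.27, or 5.58-fold lower (adjusted p = 3.6e-06). Without preparation 3 of the warm larvae the differences were -3.05 and -2.85. Counted from the strongest fall among 25434 genes, fat-7 was in place 15 in wild-type adults, 12 in mutant adults, 4 in wild-type larvae and 6 in mutant larvae.

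**Figure D1:**
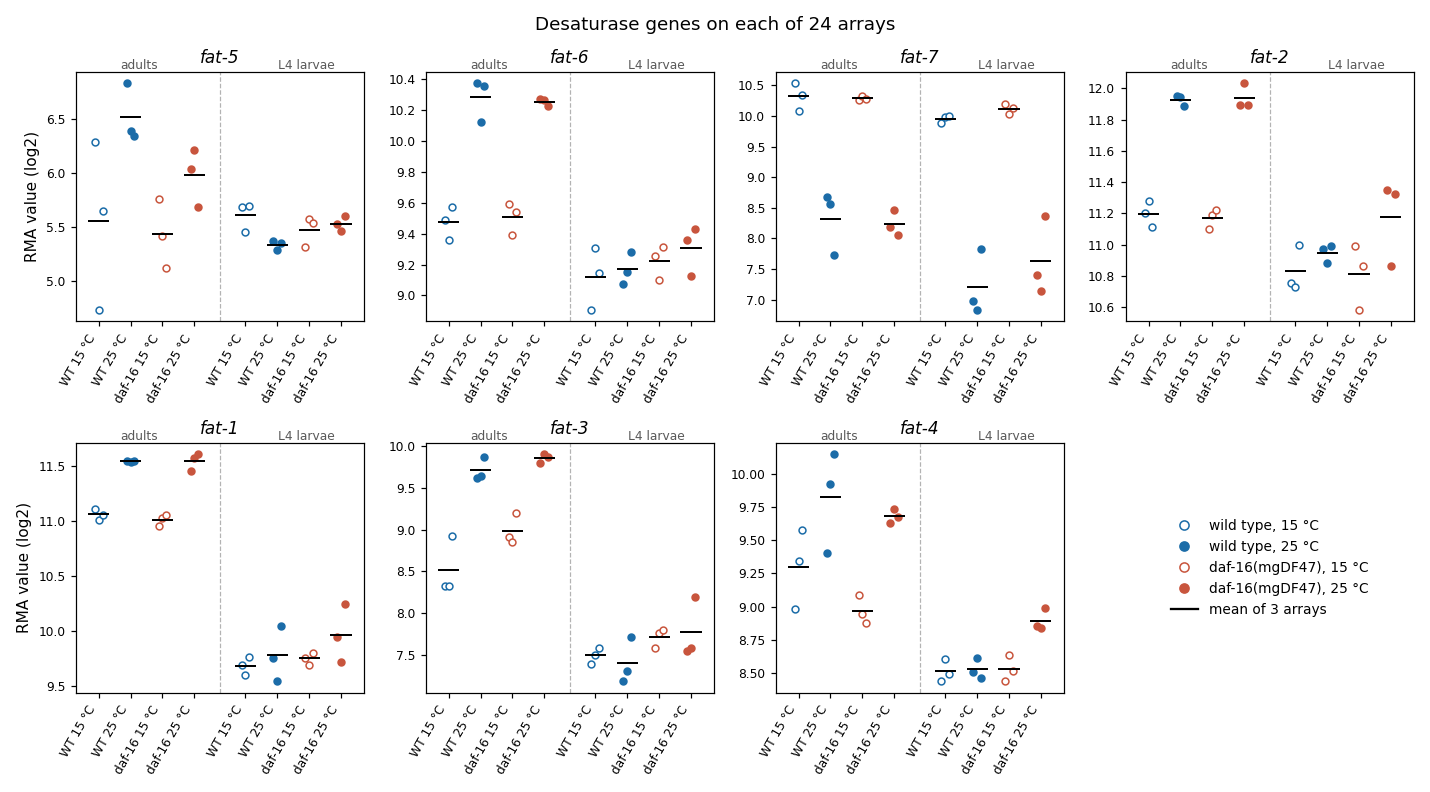
Log2 signal of fat-1 to fat-7 on each of the 24 arrays, 1 panel per gene, with the 8 groups along the horizontal axis. Points are arrays and short lines are group means, and adult and larval groups are on separately normalized scales. fat-7 lies between 9.89 and 10.54 on the cool arrays and between 6.83 and 8.68 on the warm ones.

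The other 2 genes that open the pathway did not follow fat-7. fat-6, whose enzyme catalyses the same step as FAT-7, measured 9.49, 9.36 and 9.57 in wild-type adults at 15 °C and 10.37, 10.12 and 10.35 at 25 °C. In mutant adults it measured 9.59, 9.39 and 9.54 at 15 °C and 10.27, 10.26 and 10.22 at 25 °C. Every warm adult array lay above every cool one. fat-6 rose by 0.81 ± 0.12 in wild-type adults (1.75-fold, adjusted p = 1.8e-05) and by 0.74 ± 0.12 in mutant adults (1.68-fold, adjusted p = 7e-05). In larvae the arrays of fat-6 overlapped, with 8.91, 9.31 and 9.15 at 15 °C against 9.07, 9.15 and 9.28 at 25 °C in the wild type. The mutant larvae gave 9.26, 9.10 and 9.31 against 9.36, 9.12 and 9.43. The larval differences of fat-6 were 0.05 (95% interval -0.20 to 0.30) and 0.08 (-0.17 to 0.33), not called, and -0.01 and 0.02 without preparation 3. The authors' files do not say how far the probes for fat-6 and fat-7 tell the pair of related transcripts apart, and their values are uncertain to that extent.

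fat-5, which acts mainly on palmitic acid, rose in warm wild-type adults. They measured 6.29, 4.72 and 5.64 at 15 °C and 6.83, 6.39 and 6.34 at 25 °C, and the warm arrays lay just above the cool ones. The rise of fat-5 was 0.97 ± 0.25 (1.96-fold, adjusted p = 0.0045), and it was 0.55 without the low cool array of preparation 2 and 1.34 without the cool array of preparation 1, called in both cases. Mutant adults measured 5.76, 5.41 and 5.12 at 15 °C and 6.04, 6.21 and 5.68 at 25 °C, which overlapped. Their difference was 0.55 (95% interval 0.03 to 1.06, adjusted p = 0.12), not called. Larval values of fat-5 lay between 5.28 and 5.69 in all 12 arrays, with differences of -0.28 (-0.79 to 0.24) in the wild type and 0.06 (-0.46 to 0.57) in the mutant, neither called. Without preparation 3 they were -0.28 and 0.02.

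fat-2 and fat-1, the next enzymes of the chain, rose in warm adults. fat-2 measured 11.20, 11.28 and 11.11 in wild-type adults at 15 °C and 11.95, 11.95 and 11.89 at 25 °C, and in mutant adults 11.10, 11.19 and 11.22 against 11.89, 12.03 and 11.89. The 2 temperatures did not overlap in either genotype. The rise was 0.73 ± 0.13 (1.66-fold, adjusted p = 0.00011) in the wild type and 0.77 ± 0.13 (1.70-fold, adjusted p = 9.7e-05) in the mutant. Its signal is near the top of the array, and in larvae it spanned 10.73 to 10.9998 at 15 °C and 10.88 to 10.99 at 25 °C in the wild type. Mutant larvae spanned 10.58 to 10.99 and 10.87 to 11.35, so the temperatures overlapped in both genotypes. The larval differences of fat-2 were 0.12 (-0.14 to 0.38) and 0.37 (0.10 to 0.63, adjusted p = 0.11), not called, and 0.10 and 0.30 without preparation 3.

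fat-1 measured 11.11, 11.01 and 11.05 in wild-type adults at 15 °C and 11.54, 11.53 and 11.55 at 25 °C. Mutant adults had 10.95, 11.02 and 11.05 against 11.45, 11.58 and 11.60. Both genotypes were apart by temperature. fat-1 rose by 0.48 ± 0.13 (1.40-fold, adjusted p = 0.005) in wild-type and 0.53 ± 0.13 (1.45-fold, adjusted p = 0.0031) in mutant adults. In larvae it spanned 9.59 to 9.76 at 15 °C and 9.54 to 10.04 at 25 °C in the wild type, with the mutant at 9.69 to 9.80 and 9.71 to 10.25. Those ranges overlapped, and preparation 3 was the highest warm array in both genotypes. The larval differences were 0.10 (-0.16 to 0.36) and 0.22 (-0.04 to 0.48), not called, and -0.03 and 0.08 without preparation 3.

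Among the late steps, fat-3 had the largest rise of the 7 genes in wild-type adults in this fit. It measured 8.32, 8.32 and 8.92 at 15 °C and 9.62, 9.64 and 9.87 at 25 °C there, and 8.91, 8.85 and 9.19 against 9.79, 9.90 and 9.86 in mutant adults. Warm and cool arrays were apart in both. The rise of fat-3 was 1.19 ± 0.18 (2.28-fold, 95% interval 1.77 to 2.93, adjusted p = 1.7e-05) in the wild type. It was 0.87 ± 0.18 (1.83-fold, adjusted p = 0.00076) in the mutant. Larvae measured 7.40, 7.50 and 7.59 at 15 °C against 7.18, 7.30 and 7.71 at 25 °C in the wild type, and 7.58, 7.76 and 7.80 against 7.55, 7.58 and 8.19 in the mutant. These overlapped, with preparation 3 highest again, and the differences were -0.09 (-0.46 to 0.27) and 0.06 (-0.30 to 0.42), not called. Without preparation 3 they were -0.25 and -0.15, so the mutant value changed sign, and neither was called.

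fat-4, which acts after fat-3 and lies beside it in the genome, also rose in warm adults of both genotypes. In wild-type adults it measured 8.98, 9.34 and 9.57 at 15 °C and 9.41, 9.92 and 10.15 at 25 °C, which overlapped. In mutant adults it measured 9.08, 8.95 and 8.88 against 9.63, 9.74 and 9.68, which did not. fat-4 rose by 0.52 ± 0.15 in the wild type (1.44-fold, adjusted p = 0.011) and by 0.71 ± 0.15 in the mutant (1.64-fold, adjusted p = 0.0013). The wild-type call was lost without the cool array of preparation 1 (0.37, adjusted p = 0.092) or the warm array of preparation 3 (0.36, adjusted p = 0.09) in the fit without pairing. The labels do not say that preparation numbers pair arrays. In wild-type adults arrays of the same number deviated together, with weak correlations of 0.29, 0.26 and 0.34. With arrays matched by number, fat-4 was higher at 25 °C in 3 of 3 matches, by 0.42, 0.58 and 0.57. With the number as a block, in a run added after the data were seen, fat-4 had a limma adjusted p of 0.0012. Larvae measured 8.44 to 8.61 at 15 °C and 8.46 to 8.61 at 25 °C in the wild type. The mutant larvae, at 8.44, 8.63 and 8.51 against 8.85, 8.84 and 8.99, did not overlap but were not called (0.36, 0.05 to 0.68, adjusted p = 0.21). Without preparation 3 the larval differences of fat-4 were 0.05 in the wild type and 0.32 in the mutant, neither called.

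In wild-type adults 6 of the 7 genes rose at 25 °C, where 15.1% of all genes tested rose, and 1 fell, where 15.0% did. In mutant adults 5 rose against 13.4% of all genes, 1 fell against 11.2%, and fat-5 was not called. In wild-type larvae 0 rose and fat-7 fell, against 2.25% and 2.03% of all genes. In mutant larvae 0 rose and fat-7 fell, against 2.72% and 1.88%. Arrays of the 2 temperatures did not overlap for 5 genes that were higher and 1 that was lower in warm wild-type adults, where 17.6% and 25.2% of all genes were so, and for 5 and 1 in warm mutant adults, where 19% and 26.4% were. In larvae this was so for 0 higher and 2 lower genes (fat-7 and fat-5) in the wild type against 8.4% and 10.7% of all genes, and for 1 and 1 in the mutant (fat-4 and fat-7) against 10.3% and 10.9%. The median difference over the 7 genes was 0.73 in wild-type adults and 0.71 in mutant adults, beside -0.10 over all genes in both. It was 0.02 and 0.08 in larvae, beside -0.03 and -0.02. The 7 genes were picked by name, and the 4 enzymes of the later steps were called in both adult comparisons. Centring each array on its own median moved the all-gene median in wild-type adults to -0.19 and the share of calls that were rises from 50.23% to 35.95%, and in mutant adults from 54.35% to 43.36%. All called directions of the 7 genes were the same under that centring and under cyclic loess.

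**Figure D2:**
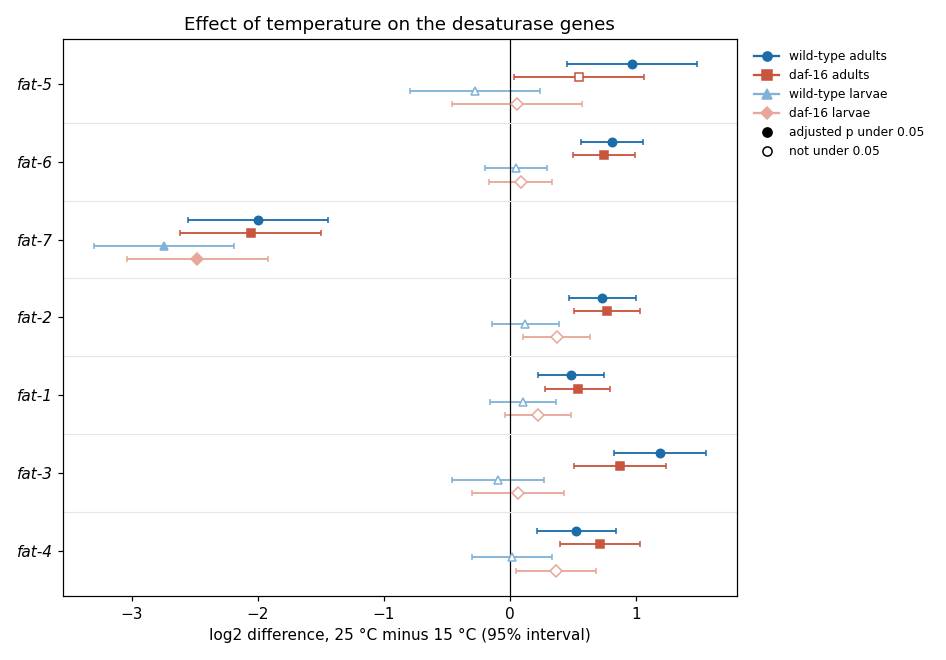
Log2 difference between 25 °C and 15 °C for each desaturase gene in the 4 groups compared, with 95% intervals from limma. Filled symbols have an adjusted p under 0.05 over 25434 genes. fat-7 lies between -2.74 and -1.997, while the adult differences of the other 6 genes lie between 0.48 and 1.19.

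Markers of other tissues and stages moved with the adult temperature difference, and their part in it was not tested. The shares of all genes given above, 15.1% higher and 15.0% lower in wild-type adults, are the background of these counts. In wild-type adults 5 of 5 body wall muscle markers rose, with a mean level over the list of 8.43 to 8.57 on the cool arrays and 9.37 to 9.45 on the warm ones. Of 5 genes of the late L4 moult 4 rose, with list means of 5.24 to 5.85 and 7.28 to 7.48. Of 6 early embryo markers 3 rose, at 4.02 to 4.70 and 4.78 to 4.97. The 3 were sdz-28, tbx-37 and sdz-1, and sdz-1 and med-1 of that list had adult group means of 2.56 to 3.16, below every adult array's median. Of 9 intestine markers 1 rose and 2 fell, at 8.41 to 8.66 and 8.37 to 8.69, so the ranges of the list mean overlapped. Of 6 hypodermis markers 2 rose and 0 fell, at 4.94 to 5.08 and 5.17 to 5.26. The germ line list (11.14 to 11.21 and 10.95 to 11.05) and the sperm list (2.60 to 2.72 and 2.52 to 3.28) had 0 of 6 members called each. The sperm list means lay below every adult array's median, where signal above background is not shown. Of 5 adult-stage markers 0 rose and 1 fell, at 10.80 to 10.88 and 10.61 to 10.80. The gene col-19 is on both this list and the hypodermis list.

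In mutant adults 13.4% of all genes rose and 11.2% fell. Among the markers there, 2 of 5 muscle, 3 of 5 moult and 2 of 6 embryo genes rose. So did 2 of 9 intestine and 2 of 6 hypodermis markers. In the other direction, 1 embryo, 1 intestine and 1 hypodermis marker fell, as did 2 of 5 adult-stage markers. In warm larvae 2.25% of all genes rose and 2.03% fell in the wild type, and 2.72% and 1.88% in the mutant. There 1 of 6 germ line markers fell in the wild type and 3 of 6 in the mutant. Of 6 hypodermis markers 2 and 1 fell, and of 5 adult-stage markers 1 rose and 1 fell in wild-type larvae, while 3 fell in mutant larvae. The larval intestine list had 1 rise and 1 fall of 9 in the wild type, and 2 rises and 0 falls in the mutant. Its mean was 8.21 to 8.63 at 15 °C and 8.25 to 8.57 at 25 °C in the wild type, and 8.30 to 8.51 and 8.47 to 8.59 in the mutant. The ranges of this list mean overlapped in each larval comparison, while the group means of its members moved in both directions. Any part of the intestine in the fall of fat-7 was not tested. RMA values have no true zero, so no marker can be said to be at 0.

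Loss of daf-16 changed none of the 7 genes past the threshold: 0 of 7 were called in each of the 4 comparisons by limma, where 1.47%, 3.0%, 0.0708% and 0.118% of all genes were called in adults at 15 °C, adults at 25 °C, larvae at 15 °C and larvae at 25 °C. At an unadjusted p under 0.05 there were 2, 1, 0 and 2 of the 7, against 12.5%, 14.0%, 7.86% and 4.99% of all genes. In adults at 15 °C these were fat-3, at 0.46 (95% interval 0.10 to 0.83, adjusted p = 0.24), and fat-4, at -0.33 (-0.65 to -0.02, adjusted p = 0.36). In adults at 25 °C it was fat-5, at -0.54 (-1.06 to -0.03, adjusted p = 0.32), 1 of 7 genes whose arrays did not overlap and were lower in the mutant, as for 8.69% of all genes. Arrays also did not overlap, but were higher in the mutant, for fat-7 in larvae at 15 °C and for fat-4 and fat-5 in larvae at 25 °C. No share over all genes is given here for these, so whether they stand out from other genes is not shown. In larvae at 25 °C the genes with an unadjusted p under 0.05 were fat-3, at 0.38 (0.01 to 0.74), and fat-4, at 0.37 (0.05 to 0.68). Their adjusted p was 0.995 and 0.87 by limma. Leaving out 1 array moved fat-4 in adults at 15 °C to between -0.49 and -0.19, and fat-3 in larvae at 25 °C to between 0.17 and 0.53.

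For fat-7 the difference between genotypes was -0.03 (95% interval -0.59 to 0.53) in adults at 15 °C and -0.09 (-0.65 to 0.47) at 25 °C. It was 0.16 (-0.39 to 0.72) in larvae at 15 °C and 0.43 (-0.13 to 0.98) at 25 °C, where leaving out 1 array gave 0.06 to 0.73. For larvae at 25 °C the labels give no pairing of the genotypes. Arrays of the same preparation number correlated in their deviations across genotypes at 0.16, 0.15 and 0.45. With arrays matched by number, fat-7 was higher in the mutant in 3 of 3 matches, by 0.42, 0.31 and 0.55. The same held for fat-1, fat-3, fat-4 and fat-5. No share over all genes was computed for such matches, and the matching was taken from the data. Whether these genes stand out from other genes is therefore not shown. With the number as a block, in a run added after the data were seen, 0 of 7 genes were called there by limma. In that run fat-3, fat-4 and fat-7 had an unadjusted p under 0.05, and fat-7 had an adjusted p of 0.64 and fat-3 of 0.43. The share of all genes under that unadjusted threshold in the run is not given here. Without preparation 3 fat-7 was at 0.37 and fat-3 at 0.32 in these larvae. fat-6 was held more narrowly, with differences of 0.03, -0.03, 0.10 and 0.14 and intervals that together span -0.28 to 0.39. With the temperatures averaged, a comparison added after the data were seen, 0 of 7 genes were called in adults and 0 of 7 in larvae. In that comparison fat-3 was 0.30 higher in the mutant in both stages (adjusted p = 0.17 and 0.47), and fat-5 was at -0.33 in adults (-0.70 to 0.03).

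**Figure D3:**
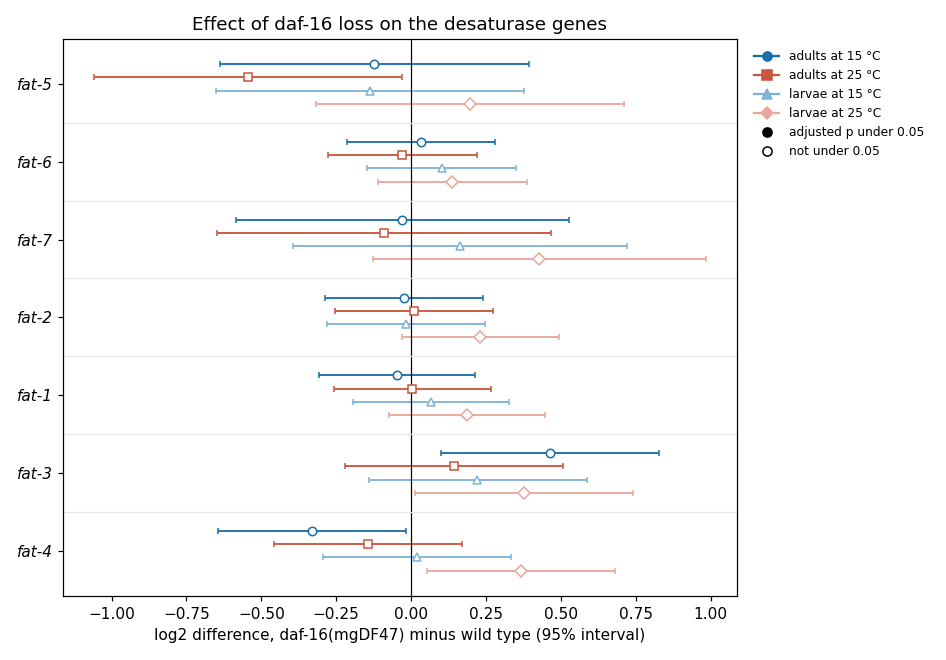
Log2 difference between daf-16(mgDF47) and wild type for each desaturase gene in adults and larvae at both temperatures, with 95% intervals from limma. All symbols are open, since none of the 28 differences had an adjusted p under 0.05, and they lie between -0.54 and 0.46.

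Whether the effect of temperature differed with genotype was tested as a difference of differences. 0 of 7 genes were called in adults, where 0.267% of all genes were, and 0 of 7 in larvae, where 0.0% (0 genes) were. At an unadjusted p under 0.05 there were 0 of 7 in both stages, against 6.75% and 4.13% of all genes. For fat-7 the warmth effect of the mutant less that of the wild type was -0.06 (95% interval -0.85 to 0.73) in adults and 0.26 (-0.52 to 1.05) in larvae. The adult intervals were as wide for fat-5 (-0.42, -1.15 to 0.31) and narrower for fat-3 (-0.32, -0.83 to 0.19). fat-1 and fat-2 were the most narrowly bounded in adults after fat-6, at 0.05 (-0.32 to 0.42) and 0.04 (-0.34 to 0.41).

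The effect of temperature differed between the adult and larval groups for several of the genes. Adults were kept at these temperatures for 3 days from late L4, while larvae grew at them from the embryo until late L4. Stage, physiological age and the length and timing of exposure therefore cannot be told apart in this comparison. In the wild type the adult effect exceeded the larval effect for 4 of 7 genes, where 8.66% of all genes had such a call. These were fat-3 (1.28 ± 0.25, adjusted p = 0.001), fat-5 (1.25 ± 0.35, adjusted p = 0.019), fat-6 (0.76 ± 0.17, adjusted p = 0.0037) and fat-2 (0.61 ± 0.18, adjusted p = 0.025). In the mutant it did so for 2 of 7, where 6.82% had such a call: fat-3 (0.81 ± 0.25, adjusted p = 0.039) and fat-6 (0.66 ± 0.17, adjusted p = 0.013). The calls of fat-6 in both genotypes and of fat-3 in the wild type held in every run that left out 1 array.

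The other calls depended on single arrays. In the wild type fat-2 lost its call without the adult array of preparation 3 at 15 °C (adjusted p = 0.061), the larval array of preparation 3 at 15 °C (0.07) or the larval array of preparation 2 at 25 °C (0.058). fat-5 lost it without the adult array of preparation 1 at 25 °C (1.09, adjusted p = 0.054). Without the adult array of preparation 2 at 15 °C, fat-5 kept its call at 0.83. fat-3 in the mutant lost its call in 9 of 12 such runs, at 0.70 to 0.84 and adjusted p from 0.051 to 0.11. These were the runs without mutant adult preparations 1 and 2 at 15 °C, 1, 2 and 3 at 25 °C, mutant larval preparations 2 and 3 at 15 °C, and 1 and 2 at 25 °C. Without preparation 3 of the warm larvae in both genotypes it was 1.02 and called (adjusted p = 0.0035). Centring each array on its own median moved the share of rises among all calls of this comparison from 62.95% to 52.83% in the wild type and from 67.99% to 57.97% in the mutant.

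fat-7 fell more in larvae than in adults by value, and the difference, adult minus larval, was 0.75 (95% interval -0.04 to 1.53, adjusted p = 0.22) in the wild type and 0.42 (-0.37 to 1.21, adjusted p = 0.56) in the mutant, not called. Without preparation 3 of the warm larvae in both genotypes it was 1.05 and called in the wild type (adjusted p = 0.014), and 0.79 in the mutant (adjusted p = 0.082). In the same setting fat-1 in the wild type moved from 0.38 (adjusted p = 0.17) to 0.52 (adjusted p = 0.02), so 6 of the 7 genes were called there. fat-4 was at 0.51 in the wild type (adjusted p = 0.13) and was called without the adult array of preparation 1 at 25 °C (0.72, adjusted p = 0.013). Genotype effects did not differ between stages past the threshold: 0 of 7 genes were called by limma at 15 °C and 0 at 25 °C, where 0.216% and 0.444% of all genes were, with 0 and 2 of the 7 (fat-4 and fat-5) at an unadjusted p under 0.05, against 9.82% and 9.75% of all genes.

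Levels in adults beside levels in larvae are given as the percentile of a gene among all genes of the same array, as a description without a test. fat-2 had group mean percentiles of 99.3 to 99.98 in all 8 groups, and fat-1 of 98.2 to 99.8. fat-7 went from 96.0 ± 1.2 (SD, n = 3) to 84.5 ± 3.5 with warmth in wild-type adults and from 98.64 ± 0.04 to 85.8 ± 4.0 in wild-type larvae. In the mutant it went from 95.9 ± 0.1 to 83.7 ± 1.5 in adults and from 98.86 ± 0.05 to 89.1 ± 4.4 in larvae. fat-6 stood at 91.2 and 91.5 in cool adults, at 96.2 and 96.0 in warm adults and at 96.7 to 97.4 in the 4 larval groups. The percentile of fat-3 was 85.2 to 88.3 in cool adults, 93.3 and 93.9 in warm adults and 87.5 to 90.3 in the larval groups, and that of fat-5 was 67.6 to 72.9 over all groups. Percentiles are ranks of probe signal, so they do not compare the amounts of different transcripts.

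**Figure D4:**
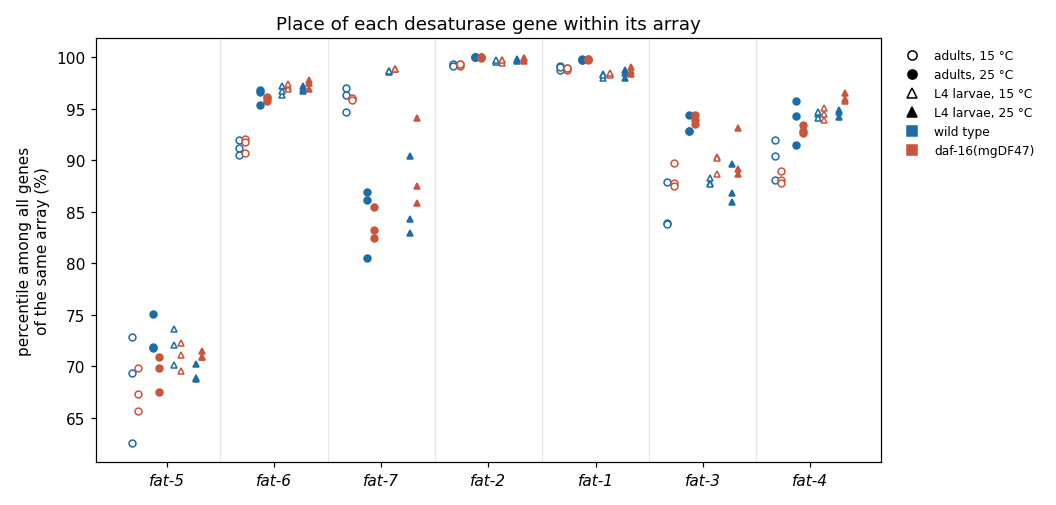
Percentile of each desaturase gene among all genes of the same array, with a point for each array (circles for adults, triangles for larvae, filled at 25 °C). fat-7 drops from 94.66 or more on the cool arrays to 94.1 or less on the warm arrays, and the highest warm value is preparation 3 of the mutant larvae.

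The groups were also put in order of their levels within each stage. For fat-1, fat-2, fat-3 and fat-6 in adults both warm groups stood above both cool ones without overlap, and the 2 genotypes at the same temperature overlapped. For fat-7 both cool adult groups stood above both warm ones, again with overlap between genotypes. For fat-4 the warm groups came first, and wild-type warm and cool arrays overlapped. For fat-5 wild-type adults at 25 °C were highest, apart from mutant adults at 25 °C. In larvae both mutant groups had the highest means for fat-3, fat-4 and fat-6, with overlapping neighbours except for mutant larvae at 25 °C in fat-4. fat-1 and fat-2 had both warm larval groups first and fat-5 was mixed, with overlap between all neighbours. In larvae only fat-7 had warm and cool groups that did not overlap in both genotypes.

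The genes whose pattern over the 24 arrays was most like that of each desaturase were ranked by Pearson correlation after removal of each stage's mean. Only genes with a symbol of letters, a hyphen and a number were ranked, so genes with a sequence name alone were left out. The arrays share the temperature groups, so these values are descriptions. For fat-7 the most alike of the genes ranked were rbm-22, ruvb-1 and dbr-1, all with r = 0.91. fat-6 was most like tig-2 (0.95), flp-6 (0.94) and lgc-22 (0.94), and flp-6 also led for fat-3 (0.93), followed by ras-2 (0.93) and faah-1 (0.92). fat-1 was followed by ttr-1, its neighbour fat-2 and vab-9 (0.91, 0.91 and 0.90), while fat-2 had oac-46, dbd-19 and tlp-1 (0.92, 0.92 and 0.91). For fat-4 they were sgk-1, nspg-13 and spl-2 (all 0.91), and for fat-5, the least closely matched, ptrg-1 (0.82), sol-1 (0.80) and samt-1 (0.80).

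Regulators of the desaturase genes were taken from a list of 11. Of these, 1 rose and 3 fell in warm wild-type adults, 0 rose and 2 fell in warm mutant adults, 1 fell in warm wild-type larvae and 0 were called in warm mutant larvae. In wild-type adults 15.1% of all genes rose and 15.0% fell, so the count of 4 is near the background. The shares were 13.4% and 11.2% in mutant adults. They were 2.25% and 2.03% in wild-type larvae and 2.72% and 1.88% in mutant larvae. sbp-1, the worm's SREBP lipid transcription factor, rose by 0.41 ± 0.15 in wild-type adults (adjusted p = 0.04), and scp-1, the SCAP-like partner that escorts it, fell by 0.58 ± 0.11 on the log2 scale there (adjusted p = 0.00033). The nuclear receptors nhr-13 and nhr-66 were also lower in wild-type adults, at -0.40 and -0.37 (adjusted p = 0.0099 and 0.0084). In mutant adults nhr-66 was at -0.31 and scp-1 at -0.31 (adjusted p = 0.029 and 0.046), and in wild-type larvae scp-1 was at -0.39 (adjusted p = 0.049).

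Another 5 of the 11, given whatever their call, were not called with temperature in any of the 4 groups. nhr-49 and nhr-80, nuclear receptors that promote its expression, were at 0.03 to 0.16 and 0.23 to 0.32. mdt-15, a Mediator subunit that works with them, was at -0.07 to 0.05. paqr-2, a membrane protein needed for growth in the cold, was at -0.36 to -0.05, and acdh-11, an acyl-CoA dehydrogenase that limits fat-7 in warm worms, at 0.04 to 0.23. sbp-1 was at 0.22 in mutant adults and -0.31 and -0.40 in wild-type and mutant larvae, not called in these, and its adult effect exceeded the larval one by 0.71 in the wild type (adjusted p = 0.023).

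Of 12 elongation genes, which lengthen fatty acids between the desaturation steps, 1 rose and 2 fell in warm wild-type adults. In warm mutant adults 4 fell, and 0 were called in either larval comparison. Of all genes 15.1% rose and 15.0% fell in wild-type adults, and 13.4% and 11.2% in mutant adults. elo-2, which lengthens palmitic acid, was lower at -0.48 ± 0.12 in wild-type and -0.42 ± 0.12 in mutant adults (adjusted p = 0.004 and 0.013). elo-9 was lower at -0.66 and -0.57 (adjusted p = 0.0027 and 0.011). elo-7 rose by 1.11 ± 0.22 in wild-type adults (adjusted p = 0.00038), but its adult group means of 2.09 to 3.20 lay below every adult array's median, where signal above background is not shown. elo-8, not called with temperature, had adult group means of 2.05 to 2.21, likewise below every adult array's median. In mutant adults elo-4 (-0.94, adjusted p = 8.7e-05) and elo-6 (-0.44, adjusted p = 0.036) fell. elo-1 and elo-5, which lengthen polyunsaturated and branched chains, were at -0.02 to 0.15 and 0.05 to 0.39 and were not called. Between genotypes 2 of the 12 were called, both lower in mutant adults at 25 °C, where 3.0% of all genes were called. These were elo-7, at these dim levels, by -0.97 (adjusted p = 0.013) and elo-6 by -0.56 (adjusted p = 0.045).

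Shorter lists covered the supply of saturated fatty acids, the electron donors and the use of the products. The shares of all genes called with temperature, given above, are the background of these counts too. Of 3 supply genes 2 were called in wild-type adults. fasn-1, the fatty acid synthase, rose by 0.68 ± 0.16 and 0.51 ± 0.16 in wild-type and mutant adults (adjusted p = 0.0025 and 0.024). mlcd-1, a malonyl-CoA decarboxylase, which breaks down the building block of synthesis, was lower in wild-type adults (-0.29, adjusted p = 0.03) and higher in mutant larvae (0.35, adjusted p = 0.043), and no other supply gene was called with temperature. Of the 4 genes for the cytochrome b5 electron chain that serves the desaturases, 0 were called in any of the 4 temperature comparisons by limma. Of 5 genes that use polyunsaturated fatty acids, mboa-7, a lysophospholipid acyltransferase, fell in wild-type adults (-0.56, adjusted p = 0.0015) and 0 were called in the other 3 comparisons. In that list cyp-29A3 had group means of 2.84 to 3.14 in adults and 2.08 to 2.17 in larvae, also below the array medians. Of 3 sphingolipid desaturase and hydroxylase genes, ttm-5, a dihydroceramide desaturase, rose in wild-type and mutant adults (0.54 and 0.62, adjusted p = 0.0036 and 0.0016).

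**Figure D5:**
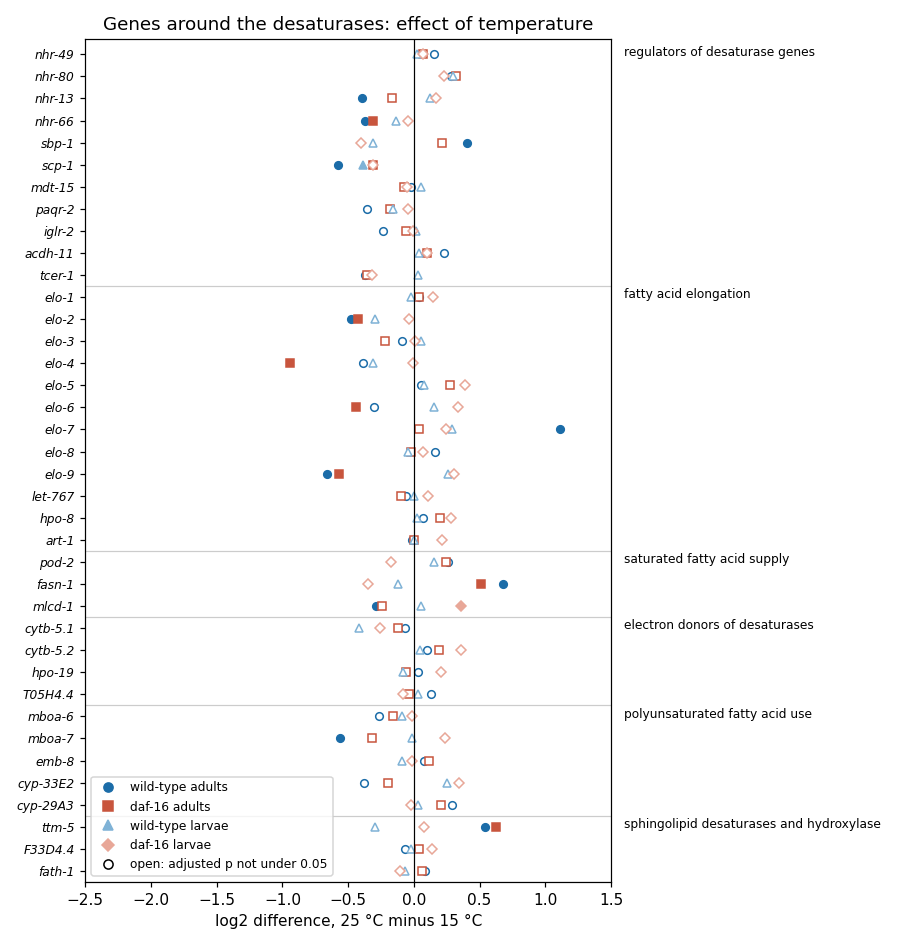
Log2 difference between 25 °C and 15 °C for genes of 6 lists around the desaturases, in wild-type and mutant adults and larvae. Filled symbols have an adjusted p under 0.05. elo-7 in wild-type adults lies highest at 1.11, at a signal below the array medians, and the fall of elo-4 to -0.94 in mutant adults is the lowest value.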

How the data were processed

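RNA of whole worms was hybridized to Affymetrix C. elegans Gene 1.1 ST arrays, which read the whole transcript. Values were deposited as log2 signals, which the authors computed with RMA (background correction, quantile normalization and probe summary), per the submitters' processing notes. No source used here gives its version or settings. Of 29317 probe sets, 25484 had 1 gene symbol in the platform annotation, 700 had several and 3133 were unnamed. Of the 25484, 25433 matched the RefSeq table by gene identifier. For 41 genes with several probe sets the brightest was kept (47 left out). The 3 probe sets blank in all adult arrays were left out, and 25434 genes were tested without a filter on dim genes. Arrays give no read depth, and the number of arrays limits the precision.

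R 4.3.3 and limma 3.58.1 (lmFit, contrasts.fit, eBayes) fitted 8 group means over all 24 arrays, with residual and prior degrees of freedom of 16 and 6.06. Each p-value is from that two-sided moderated test, adjusted by Benjamini-Hochberg over all genes of a comparison, and the script was tested on simulated data. The members, the lists and the tests were chosen with earlier results of these data known. The genes named are fat-1 to fat-7, daf-16 and up to 4 called members of each list in a comparison by size. Also named are 9 regulators and elongases whatever their call, and the 3 genes most like each desaturase among those ranked. Genes bli-1, vit-1, vit-2, vit-5, vit-6, col-19, sdz-1, sdz-28, tbx-37 and med-1 were named after their values were seen. Preparation numbers could pair arrays across groups, but the labels do not say that they do. All 3 numbers deviated together (correlation above 0.1) between wild-type adults at the 2 temperatures (0.29, 0.26 and 0.34) and between genotypes in larvae at 25 °C (0.16, 0.15 and 0.45), and a pairing is taken from the data in these. Alternatives were array-median centring, cyclic loess, a fit of 1 stage alone, the replicate block, a filter on dim genes, array weights, a trended robust prior and leaving out each array.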

Additional observations from a re-analysis of the deposited data

Results flagged for a closer look

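For 6 results a test of the difference found that the effect of temperature was higher in adults than in larvae of the same genotype (limma adjusted p under 0.05). In the wild type, adult minus larval effect was 0.61 for fat-2, 1.28 for fat-3, 1.25 for fat-5 and 0.76 for fat-6. In the mutant it was 0.81 for fat-3 and 0.66 for fat-6. Adults and larvae also differed in the length and timing of exposure, which cannot be told apart from stage. The groups of 3 arrays were too small to be tested for a single outlying array.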

How the results depend on the processing

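The counts of desaturase genes called stayed within 1.5 times of those reported in 216 of 229 recomputations, and 0 of the single differences changed direction with its call. The exceptions past 1.5 times concern mutant worms. In mutant larvae the count with temperature went from 1 to 2, through fat-2, under cyclic loess (adjusted p = 0.0498), a trended robust prior (0.034) and the replicate block nested in the groups compared (0.038), which was added after the data were seen, and it ranged from 1 to 2 when 1 array was left out. In the comparison of stages in the mutant the count ranged from 1 to 2 when 1 array was left out. For wild-type adults the count was 6 or 7 and for the wild-type comparison of stages 3 or 4 in such runs. Without preparation 3 of the warm larvae in both genotypes, the wild-type comparison of stages went from 4 to 6. That change is at the limit of 1.5 times and was scored as within it. fat-1 was called in the wild-type comparison of stages under cyclic loess (0.55, adjusted p = 0.045). The planned replicate block by stage left the count at 7 in wild-type adults and 6 in mutant adults. Nested in the groups compared, the block gave 7 in mutant adults, where fat-5 was called at 0.55 (limma adjusted p = 0.033). It changed no call in the comparisons taken as paired. In the comparisons not taken as paired the arrays share only a number. A fit of 1 stage alone gives no value for comparisons of stages. Ranking among all probe sets moved 15 of 56 group percentiles by more than the SD between arrays. The cause of these shifts was not tested. All 7 genes passed the filter on dim genes.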
